A study of Mus musculus with 6 samples.

Results

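Transcript levels of the mitochondrial pyruvate carrier, the pyruvate dehydrogenase (PDH) complex and enzymes that switch the complex were compared between lung group 2 innate lymphoid cells (ILC2s) of WT and SIRPα KO mice. The 10 genes, Mpc1, Mpc2, Pdha1, Pdhb, Dlat, Dld, Pdhx, Pdk1, Pdk3 and Pdp1, were taken by name, from their known roles, out of the 17831 genes of the deposited count table. All 10 passed the filter on low counts that left 13623 genes for testing. SIRPα is an inhibitory receptor that binds CD47, and the bulk RNAseq asked how its loss changes the transcriptome of activated lung ILC2s. WT mice carried the genotype label CB57BL/6, and SIRPα KO mice carried SIRPalphatm1Ynliu/J, an allele they had in every cell and not in ILC2s alone. Mice of both groups were 6 to 8 weeks old and were given intranasal rmIL-33, 0.5 μg a day for 3 days. Lung ILC2s, gated as CD45+, lineage-, CD127+ and ST2+, were sorted on day 4 and cultured with 10 ng/mL each of rmIL-2 and rmIL-7 before RNA was taken. A culture of 18 h is named in one place and of 24 h in another. Each genotype had 3 libraries, all from IL-33-treated mice, so the comparison says nothing about resting cells.

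Pyruvate, the end product of glycolysis, crosses the inner mitochondrial membrane through a carrier made of MPC1 and MPC2, which works as a pair and not as either protein alone. In the matrix the PDH complex turns it into acetyl-CoA, the fuel of the TCA cycle. PDH kinases switch the complex off by phosphorylating its E1 component, and PDH phosphatases switch it on again, so transcript levels do not give the activity of the complex. ILC2s release type 2 cytokines such as IL-5 and IL-13, and their activation draws on mitochondrial respiration.

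The libraries were made from 10 pg of RNA each with a kit that amplifies cDNA, and held between 13980499 and 19051507 estimated reads on genes. In the labels, WT replicates 1 and 2 are marked 37 and 37V1, WT replicate 3 is marked 38, SIRPα KO replicate 1 is marked 43, and SIRPα KO replicates 2 and 3 are marked 44 and 44V1. Nothing says that the libraries came from separate animals, so the p values measure the spread between libraries, which may be technical where a code is shared. Variation between replicates was larger in WT (edgeR's biological coefficient of variation, 38%) than in SIRPα KO (15.2%). Sirpa itself had 149, 96 and 73 reads in WT and 48, 85 and 28 in SIRPα KO, with a log2 fold change of -1.12 and an adjusted p of 0.115 in edgeR's quasi-likelihood test. Reads of the targeted gene thus remained in each SIRPα KO library, and the difference did not pass the test. The ILC2 markers were present in all 6 libraries. They moved in both directions. Past the threshold, 3 of 15 were higher (Il5, Il2ra and Ptprc) and 2 lower (Id2 and Thy1), beside 5.94% and 5.81% of all genes. The summed level of these markers was 15600 to 16700 CPM in WT against 21400 to 21900 CPM in SIRPα KO. It was set mainly by Il5, at means of 9190 and 13000 CPM, and Il2ra, at 1840 and 3450 CPM.

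The 4 genes whose level passed the test are introduced by the bases before a RefSeq transcription start. Below are the 250 bases before the RefSeq transcription start of Mpc1 (chr17:8283537-8283786, + strand), Mpc2 (chr1:165461010-165461259, + strand), Pdha1 (chrX:160138431-160138680, - strand) and Dlat (chr9:50659781-50660030, - strand), in build GRCm38.p6. Each is written 5′ to 3′ on the gene's strand. The windows of Mpc1 and Mpc2 lie inside the GENCODE M21 spans of these genes (chr17:8282904-8297661 and chr1:165460637-165481214), which start further upstream. For Mpc1, 2 windows were listed and the more upstream was used. Capitals mark the letters CCAAT or GGGCGG, known as the CCAAT box and the GC box, or their reverse complements ATTGG and CCGCCC.
Mpc1: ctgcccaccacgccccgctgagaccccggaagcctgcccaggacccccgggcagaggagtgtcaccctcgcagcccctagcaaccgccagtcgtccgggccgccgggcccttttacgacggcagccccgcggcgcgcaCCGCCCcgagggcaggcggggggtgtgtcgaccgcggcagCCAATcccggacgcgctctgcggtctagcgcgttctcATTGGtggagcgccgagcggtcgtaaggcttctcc
Mpc2: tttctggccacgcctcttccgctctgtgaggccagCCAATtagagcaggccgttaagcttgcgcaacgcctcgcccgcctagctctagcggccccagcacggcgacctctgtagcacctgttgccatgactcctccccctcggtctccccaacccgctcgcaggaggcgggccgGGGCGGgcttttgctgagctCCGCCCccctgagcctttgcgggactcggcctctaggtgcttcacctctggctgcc
Pdha1: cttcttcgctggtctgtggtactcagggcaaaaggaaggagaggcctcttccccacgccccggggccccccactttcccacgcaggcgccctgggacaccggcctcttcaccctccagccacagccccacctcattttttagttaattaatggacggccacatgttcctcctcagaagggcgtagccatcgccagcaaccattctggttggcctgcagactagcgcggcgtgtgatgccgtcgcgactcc
Dlat: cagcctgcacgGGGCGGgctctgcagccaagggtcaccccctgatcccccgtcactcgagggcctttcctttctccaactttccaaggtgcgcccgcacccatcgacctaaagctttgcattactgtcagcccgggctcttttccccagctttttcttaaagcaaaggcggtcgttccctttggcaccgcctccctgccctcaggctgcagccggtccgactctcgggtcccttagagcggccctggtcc

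Both carrier windows held CCAAT letters, 2 matches for Mpc1 and 1 for Mpc2, whereas the windows of Pdha1 and Dlat held none. GC box letters were found 1 time for Mpc1, 2 times for Mpc2 and 1 time for Dlat, and not for Pdha1. RefSeq windows were matched for 9 of the 10 genes, all but Pdp1. Among these 9, CCAAT letters were in 5 and GC box letters in 7, against 34.5% and 32.9% of 27025 promoter windows of the same length. The letters ACGTG and GCGTG, the core that HIF-1 is known to bind, were searched because Pdk1 is a textbook HIF-1 target. On either strand, ACGTG was in 2 of the 9 windows and GCGTG in 7, against 16.6% and 28.2% of all windows. The E box CACGTG, which contains ACGTG, was in 0 of the 9 and in 6.05% of all windows. GCGTG was found 3 times for Pdha1 and for Pdk3 and 1 time for Pdk1. These matches describe letters and not binding. The GC content of the 9 windows ran from 43.6% for Dld to 73.6% for Mpc1, and the windows compared were not matched for it.

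Of the 10 genes, 2 rose and 2 fell in SIRPα KO. Both carrier genes fell, and the E1 alpha subunit gene Pdha1 and the E2 gene Dlat rose. The threshold was an adjusted p under 0.05 in edgeR's quasi-likelihood test over all 13623 genes. Of all genes tested, 11.7% passed it, with 5.94% higher and 5.81% lower in SIRPα KO. Log2 fold changes of the 10 genes ran from -0.89 to 0.62 with a median of 0.19, beside a median of -0.025 for all genes. None of the 4 passed without any one of the SIRPα KO libraries (edgeR adjusted p from 0.095 to 0.196) or with libraries of a shared code summed, which leaves 2 against 2 (0.136 to 0.171). After a correction for the length and GC content of transcripts, described further on, 0 of the 10 passed, and the log2 fold changes shrank from -0.495 to -0.14 for Mpc1, from -0.89 to -0.40 for Mpc2, from 0.50 to 0.25 for Pdha1 and from 0.62 to 0.275 for Dlat. At an unadjusted p under 0.05, 6 of the 10 passed, as did 32% of all genes. Dlat, Pdha1 and Dld had been drawn among mitochondrial genes that were chosen on these same libraries, so the direction of those genes is not independent evidence. In bulk samples such as these, fewer cells expressing a gene and less RNA of it per cell cannot be told apart.

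**Figure D1:**
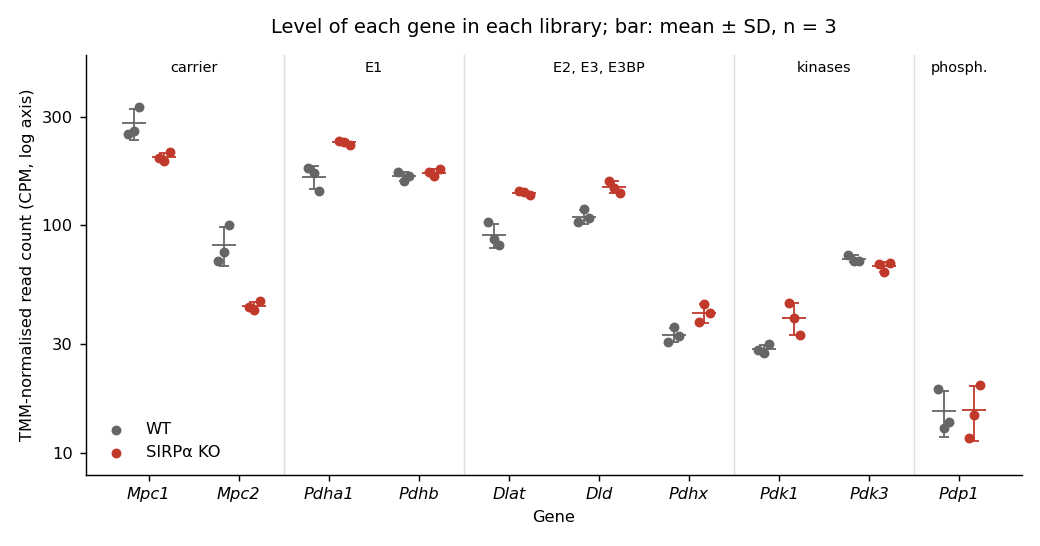
TMM-normalised read count (CPM, log axis) of the 10 genes in each library, ordered by role (phosph. is the phosphatase), with WT in grey and SIRPα KO in red. Points are libraries, and bars are the mean ± SD of 3 libraries. Mpc1 and Mpc2 lie lower and Pdha1, Dlat and Dld higher in every SIRPα KO library, whereas Pdhb and Pdp1 overlap.

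Mpc2, one partner of the carrier, is encoded at chr1:165460637-165481214 (mm10, + strand). Its level was 69.7, 75.9 and 100 CPM in the WT libraries and 43.8, 42.2 and 46.3 CPM in the SIRPα KO libraries, where CPM is the TMM-scaled read count relative to library size. No SIRPα KO library reached the lowest WT library, and the WT libraries were spread more widely. The mean was 81.9 ± 16.1 CPM in WT against 44.1 ± 2.05 CPM in SIRPα KO (SD, n = 3), a 0.538-fold level. The log2 fold change was -0.89 (SE 0.17, 95% interval -1.28 to -0.51, edgeR adjusted p = 0.0211), the largest difference in size and the smallest p of the 10 genes.

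Mpc1, the other partner, lies at chr17:8282904-8297661 (+ strand). It was read at 252, 260 and 329 CPM in WT and at 197, 191 and 209 CPM in SIRPα KO. The groups did not overlap, and WT replicate 3 was the highest library for this gene as for Mpc2. The mean was 280 ± 42.7 CPM in WT against 199 ± 9.09 CPM in SIRPα KO (SD, n = 3). On the log2 scale Mpc1 differed by -0.495 (SE 0.13, interval -0.80 to -0.19, edgeR adjusted p = 0.0484). Without WT replicate 3 the log2 fold changes were -0.355 for Mpc1 and -0.72 for Mpc2, and both still passed the test (edgeR adjusted p = 0.0186 and 0.00756). Without WT replicate 1 or WT replicate 2 Mpc1 did not pass (edgeR adjusted p = 0.0521 and 0.0507), nor did it with RLE scaling (0.0521) or no low-count filter (0.0641). As for overlapping genes, 4930506C21Rik on the opposite strand of Mpc1 had 1 to 4 reads per library, and Gm37860, inside Mpc2 on the same strand, had 11 reads in WT replicate 1 and 0 in the rest.

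The E1 component, which takes the carboxyl group off pyruvate with thiamine pyrophosphate as cofactor, is built of alpha subunits from Pdha1 and beta subunits from Pdhb. Pdha1 (chrX:160122209-160138413, - strand) was read at 178, 170 and 141 CPM in WT and at 235, 232 and 225 CPM in SIRPα KO. All SIRPα KO libraries were above all WT libraries and lay close together. The mean was 163 ± 19.1 CPM in WT against 231 ± 5.17 CPM in SIRPα KO (SD, n = 3), a 1.41-fold level, and the log2 fold change was 0.50 (SE 0.12, interval 0.225 to 0.775, edgeR adjusted p = 0.0377). Map3k15 overlaps Pdha1 on the opposite strand and had 1 to 38 reads per library, against 2136 to 4421 for Pdha1. Pdha1 and Pdk3 are on the X chromosome. Xist, transcribed from the inactive X of female cells, was present in all 6 libraries, at 47.8 to 93.4 CPM in WT against 79.1 to 94 CPM in SIRPα KO, with a log2 fold change of 0.31 (edgeR adjusted p = 0.393).

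Pdhb (chr14:8165996-8173025, - strand) was read at 171, 156 and 165 CPM in WT and at 171, 164 and 176 CPM in SIRPα KO. The groups overlapped. A log2 fold change of 0.055 was estimated (SE 0.10, 95% interval -0.18 to 0.29, edgeR adjusted p = 0.747). The transcript of Gm6123 is 97.0% identical to that of Pdhb over 1079 bases, and it was given 48 to 82 reads per library, so reads may have been divided between the pair. The ratio of Pdha1 to Pdhb, both per kilobase of transcript, was 0.553, 0.577 and 0.455 in WT and 0.729, 0.751 and 0.679 in SIRPα KO. The 2 genes of E1 were thus closer in level, before any correction, in each SIRPα KO library than in any WT library. They differ in transcript length, at 2848 and 1513 bases. After the length and GC correction their log2 fold changes were near each other, at 0.25 for Pdha1 and 0.18 for Pdhb.

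Dlat (chr9:50634633-50659780, - strand) encodes E2, the core of the complex, which hands the acetyl group to coenzyme A on a lipoyl arm. It was read at 103, 86.8 and 82 CPM in WT and at 141, 140 and 136 CPM in SIRPα KO. The groups were separated by more than the whole range of either. The mean was 90.5 ± 10.9 CPM in WT against 139 ± 2.64 CPM in SIRPα KO (SD, n = 3), a 1.54-fold level. The log2 fold change was 0.62 (SE 0.13, interval 0.33 to 0.91, edgeR adjusted p = 0.0257), the largest increase among the 10 genes.

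Dld (chr12:31331277-31351453, - strand) encodes E3, which reoxidizes the lipoyl arm and also serves the other 2-oxoacid dehydrogenases and glycine cleavage. Its level was 103, 118 and 107 CPM in WT against 156, 146 and 138 CPM in SIRPα KO. The groups did not overlap, but the test was missed by a narrow margin, with a log2 fold change of 0.43 (SE 0.115, interval 0.16 to 0.69, edgeR adjusted p = 0.0502). Its call turned with small choices, since 5 of the 15 alternative analyses called it higher. Pdhx (chr2:103021075-103073513, - strand) encodes the protein that binds E3 to the core. It was read at 30.8, 35.5 and 32.5 CPM in WT and at 37.4, 45.2 and 41.2 CPM in SIRPα KO. The SIRPα KO libraries were again all above the WT libraries, with a log2 fold change of 0.33 (SE 0.15, interval -0.025 to 0.68, edgeR adjusted p = 0.181) that did not pass. It passed under none of the 15 alternatives.

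PDK1 and PDK3 are kinases that inactivate the complex. Pdk1 (chr2:71873224-71903858, + strand) was read at 28.3, 27.4 and 29.9 CPM in WT and at 45.3, 38.9 and 32.9 CPM in SIRPα KO. The WT libraries were tight and the SIRPα KO libraries spread, from just above WT in replicate 3 to well above it in replicate 1. The log2 fold change was 0.45 (SE 0.17, interval 0.059 to 0.845, edgeR adjusted p = 0.115). DESeq2 alone of the 15 alternatives called it (adjusted p = 0.0412). Pdk3 (chrX:93764607-93832201, - strand) was read at 74.2, 69.9 and 69.5 CPM in WT and at 67.7, 62 and 67.9 CPM in SIRPα KO. The SIRPα KO libraries lay below WT by a small margin, with a log2 fold change of -0.11 (SE 0.12, interval -0.39 to 0.17, edgeR adjusted p = 0.547).

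Pdk3 was the highest of the 3 PDH kinase transcripts compared. Per kilobase, it made up 83.1%, 82% and 76.8% of the sum of Pdk1, Pdk2 and Pdk3 in WT and 70.3%, 74.9% and 78.5% in SIRPα KO. These shares overlapped between the genotypes. The share of Pdk1 was 12.9%, 13.1% and 13.5% in WT and 19.2%, 19.2% and 15.5% in SIRPα KO, with no overlap. Pdk2 made up the rest, from 4% to 9.72% in WT and from 5.86% to 10.6% in SIRPα KO. Pdk4 had no entry in the count table under that symbol. Transcripts of Pdk1 and Pdk3 differ in length, at 5185 and 2115 bases, and the shares are without the length and GC correction. With it the log2 fold changes were -0.02 for Pdk1 and -0.16 for Pdk3.

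Pdp1 (chr4:11958184-11966452, - strand) encodes the catalytic subunit of a phosphatase that reactivates E1. It was read at 19.1, 12.9 and 13.6 CPM in WT against 11.6, 14.7 and 19.8 CPM in SIRPα KO. The groups overlapped over nearly their whole range. The log2 fold change was 0.015 (SE 0.27) with an interval of -0.60 to 0.63 (edgeR adjusted p = 0.977), so differences within that interval were not detectable at this level.

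The SIRPα KO libraries lay wholly above the WT libraries for 5 of the 10 genes and wholly below for 3. Of all genes tested, 21.6% were separated upward and 21.2% downward in this way. For 1 gene taken alone, 3 against 3 libraries allow no p below 0.1 in an exact two-sided permutation test. The calls above therefore rest on edgeR, which borrows the spread from all genes.

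**Figure D2:**
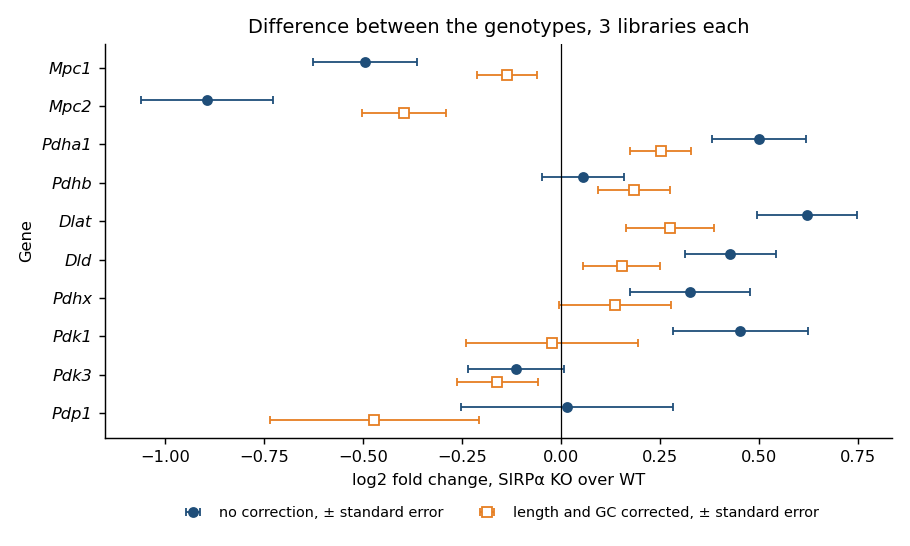
Log2 fold change of SIRPα KO over WT for each gene (horizontal axis), with no correction (filled circles) and after correcting for the length and GC content of transcripts (open squares). Bars are ± 1 standard error, 3 libraries per genotype. The carrier genes stay on the left and Pdha1, Dlat and Dld on the right, while Pdk1 and Pdp1 change sides and all corrected values of genes that passed the test are smaller in size.

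Fold changes in these libraries followed transcript length. Genes averaging a log2 CPM of 3 or more were divided into 10 bins of about equal number by transcript length, and the median log2 fold change of a bin ran from -0.56 for the shortest to 0.49 for the longest. The carrier transcripts, of 961 and 1025 bases, are in the shortest bin. Mpc1, at -0.495, was near the median of its bin, and Mpc2, at -0.89, was below it. Dlat (4035 bases, bin median 0.23) and Pdha1 (2848 bases, bin median 0.095) were above the median of transcripts of like length, and so were Dld and Pdhx (2544 and 2506 bases, median -0.003). Pdhb, near 0 as measured, was above the median of -0.29 of its bin. Pdk1 (5185 bases, median 0.34) was only slightly above, and Pdp1 (4201 bases, median 0.23) was below.

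**Figure D3:**
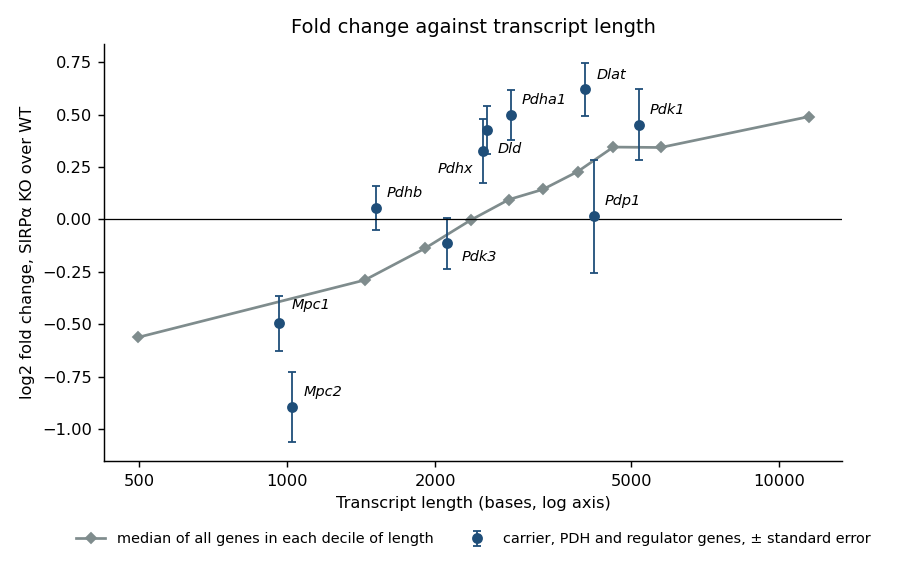
Log2 fold change of SIRPα KO over WT (vertical axis) against transcript length in bases (log axis). Circles are the 10 genes ± 1 standard error, and diamonds are the medians of the 10 bins of genes by length, placed mid-way between the shortest and longest transcript of the bin on the log axis (the last with its longest transcript capped). The medians run from -0.56 to 0.49, Mpc1 lies near them, Mpc2 and Pdp1 below, and the genes of the complex above.

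After an offset for length and GC content in each library, the bin medians lay between -0.022 and 0.028. With this correction, 0 of the 10 genes passed edgeR's adjusted threshold and 3 had an unadjusted p under 0.05, beside 1146 genes past the adjusted threshold in all. The log2 fold change of Mpc2 became -0.40 (SE 0.11, edgeR adjusted p = 0.0594), that of Pdha1 0.25 (SE 0.077, adjusted p = 0.0847), that of Dlat 0.275 (SE 0.11, adjusted p = 0.162), and that of Mpc1 -0.14 (SE 0.075, adjusted p = 0.297). These 4 kept their direction at a smaller size. Pdhb moved to 0.18 (SE 0.09), so the 5 genes of the complex all had estimates above 0, from 0.14 to 0.275, and none passed. Pdk1 moved to -0.02 (SE 0.22), Pdk3 to -0.16 (SE 0.10) and Pdp1 to -0.47 (SE 0.26). The part of amplification or RNA quality in this trend was not tested.

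In levels per kilobase of transcript, Mpc1 was the highest of the 10 genes in both genotypes, at 292 CPM per kilobase in WT and 207 in SIRPα KO. Pdhb came next in both, at 108 and 113. In WT these were followed by Mpc2 at 79.9, Pdha1 at 57.2, Dld at 42.9, Pdk3 at 33.7, Dlat at 22.4, Pdhx at 13.1, Pdk1 at 5.51 and Pdp1 at 3.62. In SIRPα KO Mpc2, at 43, stood lower, below Pdha1 at 81 and Dld at 57.7. Dlat, at 34.5, had passed Pdk3 at 31.1, and Pdhx (16.5), Pdk1 (7.53) and Pdp1 (3.66) kept their places. In neither genotype did the libraries of neighbours in this order overlap. These levels hold the length trend above. After the length and GC correction the log2 fold changes were 0.275 for Dlat and -0.16 for Pdk3, and 0.15 for Dld and -0.40 for Mpc2. The order was not redone with corrected levels.

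**Figure D4:**
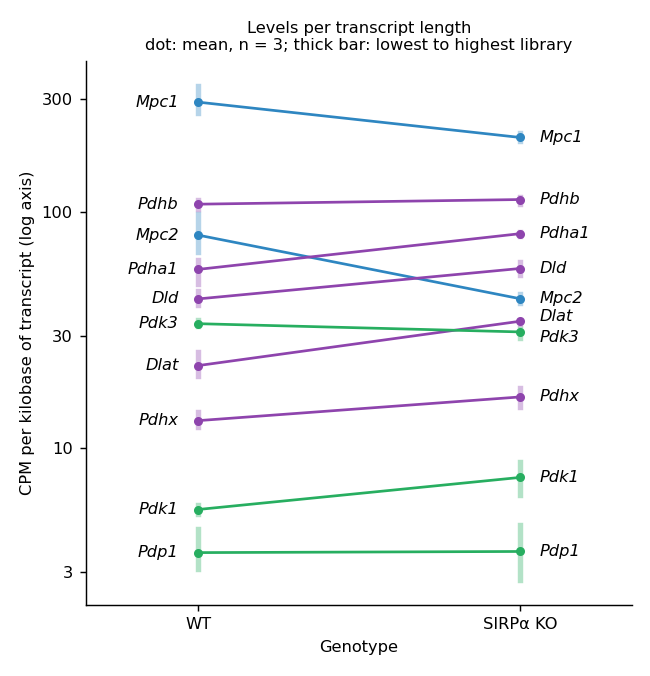
Mean level of each gene in CPM per kilobase of transcript (log axis) in WT and SIRPα KO, 3 libraries each, with thick bars from the lowest to the highest library. Carrier genes are blue, genes of the complex purple, and kinases and phosphatase green. Mpc2 drops below Pdha1 and Dld, and Dlat passes Pdk3. The levels are without the length and GC correction.

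The estimated changes of the carrier partners differed in size, at log2 fold changes of -0.495 for Mpc1 and -0.89 for Mpc2. Their intervals overlapped, at -0.80 to -0.19 and -1.28 to -0.51, and the difference was not tested. The ratio of Mpc1 to Mpc2 per kilobase was 3.85, 3.65 and 3.51 in WT and 4.79, 4.83 and 4.81 in SIRPα KO, all higher in SIRPα KO. The ratio of Dlat to Mpc2 was 0.375, 0.29 and 0.208 in WT and 0.817, 0.845 and 0.747 in SIRPα KO, so the core subunit stood closer to the carrier partner in every SIRPα KO library. The ratio of Pdha1 to Mpc1 was 0.201 ± 0.0497 in WT and 0.392 ± 0.0251 in SIRPα KO (SD, n = 3), also without overlap. The ratio of Dlat to Pdhb was likewise apart, at 0.186 to 0.226 in WT and 0.29 to 0.321 in SIRPα KO. Dlat to Pdhx overlapped, at 1.52 to 2.07 and 1.93 to 2.34, as did Pdha1 to Pdk1, at 8.6 to 11.4 and 9.44 to 12.4. Pdk3 to Pdk1 was 6.43, 6.24 and 5.69 in WT and 3.66, 3.9 and 5.05 in SIRPα KO, lower in every SIRPα KO library. The balance of either kinase with the phosphatase Pdp1 overlapped between the genotypes. No ratio was tested, and how often ratios of other gene pairs separate was not computed. Of single genes tested, 21.6% were separated upward and 21.2% downward. These ratios set genes of unlike length side by side, so the length trend above is within them. Mpc1 and Mpc2 are of nearly equal length but differ in GC content, at 48.0% and 53.3%. With the length and GC correction their log2 fold changes were -0.14 and -0.40.

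**Figure D5:**
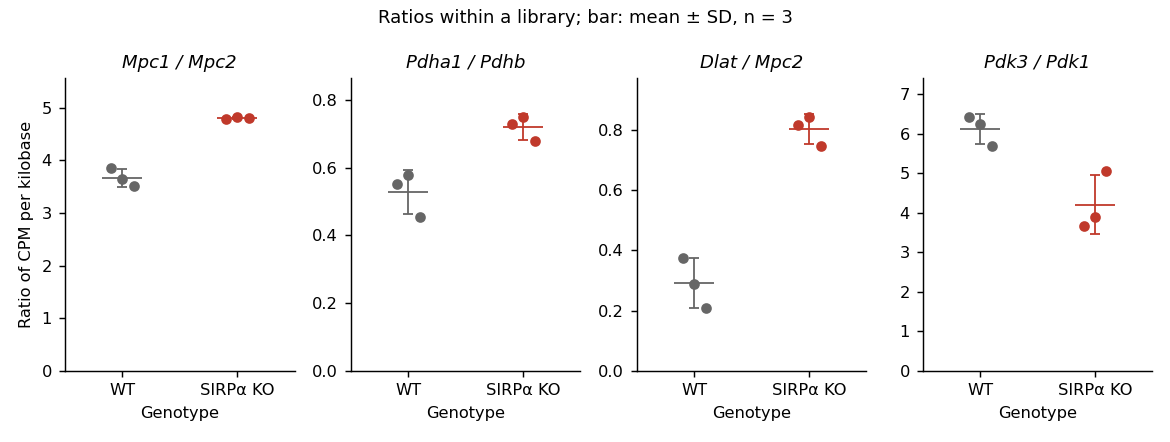
Ratio of CPM per kilobase of 2 genes within each library (vertical axes, from 0) in WT (grey) and SIRPα KO (red). Points are libraries and bars the mean ± SD of 3. Mpc1 over Mpc2, Pdha1 over Pdhb and Dlat over Mpc2 are higher, and Pdk3 over Pdk1 is lower, in every SIRPα KO library. The ratios are without the length and GC correction.

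The gene whose levels over the 6 libraries were most like those of Mpc2 was Ltb4r1, with a root mean square difference of 0.0405 in mean-centred log2 CPM. Pigbos1 (0.0468) and Dut (0.0493) came next of 9145 genes compared. Being chosen for likeness to Mpc2 over the same libraries, they had to be lower in SIRPα KO. Their log2 fold changes were -0.95, -0.93 and -0.93 in that order, given as a description.

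The surroundings of the pathway were described with lists of 76 further genes, of which 69 were tested. Of these 69, 6 rose and 5 fell, near the 5.94% higher and 5.81% lower of all genes, and their median was 0.046 on the log2 scale. The counts of single lists below are small and are given as description. Among the other kinases, phosphatases and modifiers of PDH, 0 of 6 passed, and 0 had an unadjusted p under 0.05. The smallest p was that of Pdpr, which encodes the regulatory subunit of the phosphatase. Pdpr was read at 2.65, 10.9 and 0.0662 CPM in WT and at 13.3, 14.2 and 12.3 CPM in SIRPα KO (edgeR adjusted p = 0.309). It had 1 read in WT replicate 3. Its log2 fold change was 1.56, but leaving out WT replicate 2 gave 3.26 and leaving out WT replicate 3 gave 0.99.

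The cofactors of the complex are thiamine pyrophosphate for E1 and lipoate for E2. Of the 17 genes tested that supply them, 1 rose and 0 fell. Slc19a2, a thiamine transporter of the plasma membrane, rose from 69.5 ± 21.3 to 137 ± 8.18 CPM (SD, n = 3), with a log2 fold change of 0.97 (SE 0.22, edgeR adjusted p = 0.0331). Of the 9 tested genes of the sister dehydrogenases and glycine cleavage, 1 rose. It was Gldc, the glycine decarboxylase that shares Dld, at 4.97 ± 1.32 CPM in WT against 13 ± 1.27 CPM in SIRPα KO (log2 fold change 1.38, edgeR adjusted p = 0.0239). The sister E1 and E2 genes Ogdh and Dlst, which work with Dld in the TCA cycle, had log2 fold changes of 0.46 and 0.34 and did not pass (edgeR adjusted p = 0.133 and 0.0991).

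Of the 11 tested genes of pyruvate supply and its other fates, 2 rose. Slc16a1, a plasma membrane carrier of lactate and pyruvate (MCT1), was read at 68.8, 91.4 and 71.2 CPM in WT and at 211, 161 and 170 CPM in SIRPα KO. The groups were far apart, by 1.23 on the log2 scale (SE 0.16, edgeR adjusted p = 0.0112). Me1, the cytosolic malic enzyme that makes pyruvate, rose from 45.2 ± 3.84 to 80 ± 7.68 CPM (log2 fold change 0.82, adjusted p = 0.0175). Another monocarboxylate carrier of the plasma membrane, Slc16a3 (MCT4), had a log2 fold change of 0.105 with overlapping groups (adjusted p = 0.557), and Bsg, the chaperone of both carriers, one of -0.45 (adjusted p = 0.0648). Pkm and Ldha, which make pyruvate and reduce it to lactate, had log2 fold changes of -0.085 and -0.215 (adjusted p = 0.473 and 0.122).

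Acetyl-CoA is the product of the complex. Of 8 genes of its use and supply, 2 rose, Acss1 and Hmgcs1. Acss1, which makes acetyl-CoA from acetate in mitochondria, had 8, 21 and 7 reads in WT and 84, 122 and 61 reads in SIRPα KO (log2 fold change 2.69, SE 0.57, edgeR adjusted p = 0.0281). Hmgcs1, of sterol synthesis, had 66.2 ± 18.5 and 115 ± 11.7 CPM (log2 fold change 0.80, adjusted p = 0.0497).

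HIF-1 is the oxygen-regulated factor known to induce Pdk1 and glycolytic genes. Of 18 listed genes, HIF-1 subunits, targets and oxygen sensors, 5 fell and 0 rose past the threshold, beside 5.81% and 5.94% of all genes. The list as a whole leaned neither way. Its median log2 fold change was 0.044. The groups were separated upward for 8 and downward for 8, beside 21.6% and 21.2% of all genes. At an unadjusted p under 0.05, 7 were higher and 7 lower, beside 32% of all genes in either direction. Those higher included Ero1l, at 0.51, just short of the threshold (edgeR adjusted p = 0.0504), and the glucose transporter and hexokinase genes Slc2a1 and Hk2, at 0.41 and 0.535 (adjusted p = 0.0668 and 0.0879). Egln1 and Egln2, oxygen sensors that mark HIF for destruction, fell by 1.57 and 0.56 on the log2 scale (edgeR adjusted p = 0.0332 and 0.0497). Egln3, on the same list, went the other way, at 0.72, and did not pass (adjusted p = 0.132). The glycolytic genes Aldoa and Eno1 fell by 0.41 and 0.45 (adjusted p = 0.048 and 0.0188), and Higd1a, a small mitochondrial protein, by 0.81 (adjusted p = 0.0312). Hif1a itself was read at 665, 653 and 216 CPM in WT and at 1360, 1250 and 1240 CPM in SIRPα KO, and did not pass (log2 fold change 1.33, edgeR adjusted p = 0.0545). Of the 11 genes of the lists that passed, 8 still passed after the correction for length and GC content, all but Hmgcs1, Egln2 and Aldoa. All 11 kept their sign, but Aldoa shrank to -0.008, Egln2 to -0.118 and Hmgcs1 to 0.453. Of those that still passed, Eno1 shrank to -0.189, whereas Egln1 was at -1.63. None of the 11 passed without any one of the SIRPα KO libraries or with libraries of one code summed.

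Markers of other cells were read in the sorted ILC2 libraries and moved with genotype in part. The counts of called markers below stand beside 5.94% higher and 5.81% lower of all genes tested. The sort gated out cells with CD3ε, CD4, CD5, TCRβ, B220, CD11b, CD11c, Gr1 or FcεRIα, among other lineage markers, at a stated purity over 95%. The summed B cell markers were 216 to 479 CPM in WT against 23.1 to 84.6 CPM in SIRPα KO, with 5 of 6 lower past the threshold. The summed T cell markers were 206 to 274 CPM in WT against 123 to 132 CPM in SIRPα KO, with 3 of 4 lower. These 3, Cd3g, Trbc1 and Trbc2, had log2 fold changes of -2.45, -0.96 and -0.68. Their transcripts are in the shortest length bin, whose median was -0.56, so Trbc2 was near it and Cd3g far below. Trbc1, Trbc2 and Cd3g held most T cell marker reads, whereas Cd3e had 6 to 42 reads in WT and 14 to 26 in SIRPα KO, and Cd3d and Trac had at most 23 in any library. Cd4 had 0 reads in 5 libraries. The macrophage markers were at 41.2 to 135 and 76.9 to 121 CPM with none of 7 tested called, and C1qa, C1qb, Fcgr1 and Siglecf had 0 reads in each WT library. In SIRPα KO replicates 1, 2 and 3, C1qa had 7, 3 and 0 reads, C1qb 6, 7 and 9, Fcgr1 8, 12 and 6, and Siglecf 0, 28 and 11. The granulocyte and mast cell markers were at 9.2 to 31.5 and 3.73 to 36.6 CPM, with 0 of 3 called. The eosinophil genes Epx and Prg2 had 151 and 145 reads in SIRPα KO replicate 1, and at most 17 in any other library. Epithelial, endothelial and stromal markers were at 60.6 to 93.9 and 46.8 to 112 CPM, with 1 of 4 higher and 1 lower. Of these, Scgb1a1, an airway epithelial gene, had 525 to 690 reads in WT, 1073 and 981 in SIRPα KO replicates 2 and 3, and 1 in replicate 1. The part of these other cells in the results for the carrier and the PDH complex was not tested.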

How the data were processed

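The deposited RNAseq table covers 6 libraries of cultured lung ILC2s, 3 per genotype. The authors ran STAR in Partek against mm10 and its GENCODE M21 annotation. The table they deposited holds estimated counts for each gene, not scaled for library size. The submitters' processing notes name STAR 2.7.8, Partek 10.0 and DESeq2, and the paper's methods name other versions of STAR and Partek. How shared reads and strand were treated is not given in the sources used here. The series' design text speaks of duplicates, and 3 libraries per genotype are listed. Whole numbers (within 0.01) made up 56.9% to 60.7% of a library's values, and all values were rounded. The unit was recorded singly for 136 gene columns, and 17695 more hold the same unit.

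Genes were kept by filterByExpr (minimum of 10 reads in a median-sized library and of 15 over all), TMM-scaled, and tested with edgeR 4.0.16 (R 4.3.3, limma 3.58.1), quasi-likelihood test on genotype alone, with Benjamini-Hochberg adjustment over 13623 genes. An adjusted p under 0.05 was the threshold. CPM per kilobase used the longest coding transcript. The length and GC correction fitted splines (5 degrees of freedom) to 8942 genes and used them as offsets. Length was known for 97.9% of tested genes. BLAST+ 2.17.0 searched for near-identical transcripts (95% identity or more, covering 50% or more of the transcript). Figures used matplotlib 3.10.9. The procedures were tested on simulated data.

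The alternatives were DESeq2 1.42.0, upper quartile and RLE factors, no filter, 1 CPM in 3 libraries, a replicate block, libraries of one code summed, counts thinned to those of the smallest library, the length and GC correction and leaving out each library. Named genes are the 10 members of the pathway, every gene of a list past the threshold or else the one with the smallest p, and the 3 genes (average log2 CPM of 3 or more) nearest to the member with the smallest p. Ogdh, Dlst, Pkm, Ldha, Hif1a, Scgb1a1 and other genes outside this rule were named after their values were seen. The genes and lists were chosen with earlier results of these data known. Of the 5 sex-linked markers listed, Xist was in the count table. The other 4 had no entry there under the symbols searched.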

Additional observations from a re-analysis of the deposited data

How the results depend on the processing

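Of all genes, 1600 passed the threshold with edgeR, 3214 with DESeq2, 10 with libraries of one code summed (2 against 2), and between 16 and 2606 when 1 library was left out. The low end, 16 or 17 genes, came from leaving out any one SIRPα KO library, and the high end, 2606, from leaving out WT replicate 3. Of the 10 carrier and PDH genes, 4 passed as reported, 6 with DESeq2 (4 higher and 2 lower), 2 (Mpc2 and Dlat) with a replicate block, 0 with libraries of one code summed, 0 after the correction for length and GC content, and between 0 and 5 without 1 library, with 0 for each SIRPα KO library left out. The deviations of WT and SIRPα KO libraries of one number in the labels correlated at -0.139, 0.183 and 0.0306. With 3 libraries per group and a code shared within each, these values cannot tell whether the numbers pair the libraries. Upper quartile factors moved the median of all genes to -0.125. Of the 15 alternatives, Mpc2 and Dlat passed in 10, Pdha1 in 9, Mpc1 and Dld in 5, Pdk1 in 1, and Pdhb, Pdhx, Pdk3 and Pdp1 in 0. The log2 fold changes of Mpc1, Mpc2, Pdha1, Dlat, Dld, Pdhx and Pdk3 kept their sign in all 15. Those that turned were of genes that did not pass: Pdhb to -0.047 with upper quartile factors, Pdk1 to -0.023 with the length and GC correction, and Pdp1 to -0.082 with upper quartile factors, -0.048 with libraries of one code summed, -0.471 with the length and GC correction, and between -0.202 and 0.219 without 1 library. The causes were not tested.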
